A study of Saccharomyces cerevisiae with 42 samples.

Results

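The genes described here are the 6 genes of the MCM helicase ring (MCM2 to MCM7) and the 4 genes of ribonucleotide reductase (RNR1 to RNR4) of the budding yeast Saccharomyces cerevisiae. The rule takes them by gene name and uses no measured value, and they are 10 of the 6278 open reading frames on the array. Of the 10, 9 had a value in all 18 level columns and entered the fit of 5443 genes; RNR2 had none in replicate 1 and was tested with 2 replicates per strain in a wider fit of 5999 genes.

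The MCM proteins form a ring of related subunits that is loaded onto replication origins around the end of mitosis and in G1, and that unwinds the DNA at the fork once it is activated in S phase. Ribonucleotide reductase turns ribonucleotides into the deoxyribonucleotides that the fork consumes; RNR1 and its paralog RNR3 encode large subunits, and RNR2 and RNR4 encode the small ones. In yeast, transcripts of MCM genes are known to peak near the M/G1 boundary and RNR1 near G1/S, whereas RNR2, RNR3 and RNR4 are classical genes induced by DNA damage or replication block and repressed by Rfx1. Hog1, the MAP kinase activated by high osmolarity, is known to delay the cell cycle during osmotic stress, besides inducing stress genes.

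Transcripts were compared between 3 strains before (0 min) and 60 min after addition of 1 M sorbitol at 25 °C. HOG1-GFP carries Hog1 fused to green fluorescent protein, hog1del lacks HOG1, and HOG1-CCAAX carries Hog1 with a CCAAX box, a C-terminal motif to which cells attach a lipid that anchors proteins at membranes; the labels give no other allele of these strains. There were 6 groups with 3 biological replicates each and 42 arrays with 2 colours in all, 3 technical arrays per group in replicate 1 and 2 per group in replicates 2 and 3. The question of the series, as its title puts it, concerns Hog1 outside the nucleus. No culture was held for 60 min without sorbitol, so time and handling cannot be told apart from the shock. What separates the biological replicates is not given in the sources used here.

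Levels are log2 ratios of the sample over a common reference pool, so that a level compares 1 gene between samples and never 1 gene with another. A response is the level at 60 min minus the level at 0 min within a strain and replicate. Responses were tested with limma, with Benjamini-Hochberg adjustment over all genes of the fit, and an adjusted p under 0.05 passed. The HOG1 probe (YLR113W) bore out the strain labels, with levels from −3.97 to −3.03 in the 6 hog1del columns and from −0.34 to 0.60 in the 12 others. Replicate 1 stood apart: across genes its responses correlated at 0.71 to 0.76 with those of replicates 2 and 3, which correlated at 0.95 to 0.98 with each other. Results are therefore given with and without replicate 1 where it matters. Repeated arrays of the members had a median technical SD of 0.0884 on the log2 scale over 171 sets of arrays (range 0.000347 to 0.559). MCM5 in replicate 1 was the least precise. Replicate 1 also held the highest technical SDs of MCM4 (0.32), MCM6 (0.46), MCM7 (0.35) and RNR4 (0.46).

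**Figure D1:**
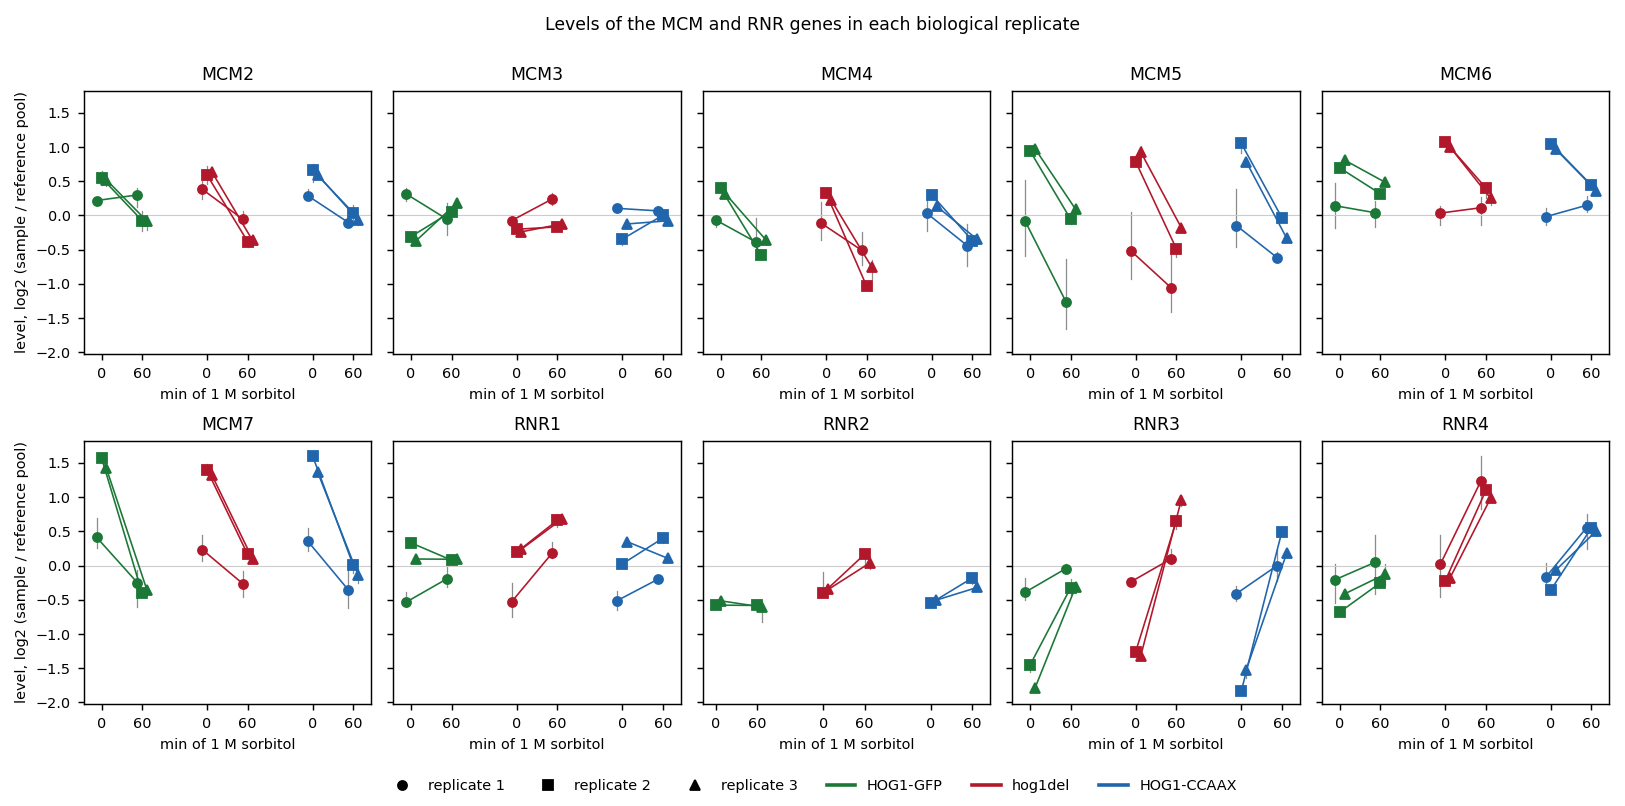
Levels (log2 of sample over reference pool, vertical axis) of the 10 genes at 0 and 60 min in each strain (colour) and biological replicate (marker); lines join the times of a replicate and grey bars span its technical arrays. MCM2, MCM4, MCM5 and MCM7 run downward in every replicate but the first of MCM2 in HOG1-GFP, and RNR3 and RNR4 upward, while replicate 1 (circles) starts lower for MCM5, MCM6 and MCM7 and higher for RNR3 than the others.

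After 60 min of sorbitol, MCM5 and MCM7, together with MCM4, fell in all 3 strains, and MCM2 fell in hog1del and HOG1-CCAAX. MCM7 in HOG1-GFP had the largest mean change among the MCM genes, 2.78-fold lower. No MCM gene rose. MCM3 and MCM6 did not pass in any strain. In HOG1-GFP, 3 of the 6 MCM genes passed, all lower, where 22.7% of all genes were called lower and 24.0% higher. In hog1del 4 of 6 were lower, against 27.4% of all genes lower and 25.6% higher, and in HOG1-CCAAX 4 of 6, against 26.1% lower and 28.1% higher. The median response of the 6 MCM genes was −0.52 in HOG1-GFP, −0.86 in hog1del and −0.55 in HOG1-CCAAX, where the medians of all genes were −0.0089, −0.012 and 0.031. Since arrays average over a culture, fewer cells in the phase that expresses a gene and less RNA per cell cannot be told apart.

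MCM7 (YBR202W, also CDC47) encodes a subunit that, with MCM4 and MCM6, forms a complex with helicase activity in vitro. In HOG1-GFP its levels were 0.41, 1.58 and 1.42 at 0 min in replicates 1, 2 and 3, and −0.25, −0.40 and −0.36 at 60 min. In hog1del they were 0.23, 1.40 and 1.32 before and −0.26, 0.16 and 0.10 after. In HOG1-CCAAX they were 0.36, 1.60 and 1.37 before and −0.36, 0.00 and −0.14 after. The times did not overlap in any strain, and replicate 1 began lowest each time, which made its decline the smallest of the 3. The responses were −1.47 ± 0.71 (SD, n = 3; limma adjusted p = 0.0021) in HOG1-GFP, −0.99 ± 0.42 (adjusted p = 0.014) in hog1del and −1.27 ± 0.49 (adjusted p = 0.0039) in HOG1-CCAAX. Without replicate 1 the decline in HOG1-GFP was 3.68-fold.

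MCM5 (YLR274W, also CDC46) encodes the subunit that closes, with MCM2, the gate through which DNA enters the ring. Its levels in HOG1-GFP went from −0.09, 0.94 and 0.98 to −1.26, −0.06 and 0.09. Those in hog1del went from −0.52, 0.78 and 0.93 to −1.06, −0.48 and −0.18. Those in HOG1-CCAAX went from −0.15, 1.05 and 0.79 to −0.61, −0.03 and −0.33. The times overlapped in each strain, since replicate 1 lay below the others throughout, but every replicate declined. The responses were −1.02 ± 0.14 (limma adjusted p = 0.0014), −0.97 ± 0.38 (adjusted p = 0.0016) and −0.89 ± 0.37 (adjusted p = 0.0024), closer to each other than those of MCM4 and MCM7, the other MCM genes that fell in all strains. Its technical arrays in replicate 1 had SDs of up to 0.56, larger than for any other member.

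MCM4 (YPR019W) encodes a main target of the kinase Cdc7-Dbf4, which activates the loaded ring. Its levels went from −0.07, 0.40 and 0.32 to −0.39, −0.58 and −0.36 in HOG1-GFP, without overlap. The other strains showed the same: from −0.11, 0.32 and 0.23 to −0.51, −1.04 and −0.75 in hog1del, and from 0.03, 0.30 and 0.14 to −0.44, −0.37 and −0.35 in HOG1-CCAAX. In HOG1-CCAAX at 0 min, the levels of replicates 2 and 3 rested on 1 array each. The responses were −0.66 ± 0.33 (limma adjusted p = 0.017), −0.91 ± 0.49 (adjusted p = 0.0031) and −0.54 ± 0.11 (adjusted p = 0.034).

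MCM2 (YBL023C) encodes another target of that kinase, which also binds histones. Its levels in HOG1-GFP were 0.22, 0.55 and 0.52 before and 0.30, −0.07 and −0.08 after, so that replicate 1 moved the other way and the times overlapped. In hog1del its levels went from 0.38, 0.59 and 0.64 to −0.05, −0.38 and −0.36, and in HOG1-CCAAX from 0.29, 0.66 and 0.60 to −0.10, 0.04 and −0.06, without overlap in either. The responses of −0.80 ± 0.32 in hog1del (limma adjusted p = 0.0040) and −0.56 ± 0.15 in HOG1-CCAAX (adjusted p = 0.022) passed, and that of −0.38 ± 0.40 in HOG1-GFP (adjusted p = 0.095) did not. It passed there without replicate 1 (−0.62, adjusted p = 0.00036) and with the replicate as a block (adjusted p = 0.0083). The block takes out the spread between replicates that the strains share, so a blocked p-value of a response does not measure that spread.

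MCM6 (YGL201C), a neighbour of MCM2 in the ring, was measured at 0.14, 0.70 and 0.81 before and 0.04, 0.32 and 0.48 after in HOG1-GFP. Its levels were 0.04, 1.08 and 1.00 before and 0.11, 0.40 and 0.25 after in hog1del, and −0.02, 1.05 and 0.97 before and 0.15, 0.44 and 0.36 after in HOG1-CCAAX. Replicates 2 and 3 were lower at 60 min in all strains, and replicate 1 was near 0 at both times. The responses of −0.27 ± 0.15, −0.45 ± 0.46 and −0.35 ± 0.45 did not pass (limma adjusted p = 0.29, 0.087 and 0.17). Without replicate 1 they were −0.35, −0.71 and −0.61 and passed (adjusted p = 0.0093, 0.00012 and 0.00034), and with the replicate as a block those of hog1del and HOG1-CCAAX passed (adjusted p = 0.0049 and 0.019).

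MCM3 (YEL032W), through which the ring is recruited to origin-bound ORC and Cdc6, was the exception among the MCM genes. Its levels in HOG1-GFP were 0.31, −0.31 and −0.37 before and −0.05, 0.06 and 0.18 after, with replicate 1 opposite in direction to the others. They were −0.07, −0.20 and −0.24 before and 0.24, −0.17 and −0.12 after in hog1del, and 0.10, −0.35 and −0.12 before and 0.07, 0.00 and −0.08 after in HOG1-CCAAX. The times overlapped in each strain. The responses of 0.18 ± 0.48, 0.16 ± 0.14 and 0.12 ± 0.20 did not pass (limma adjusted p = 0.41, 0.48 and 0.59), with 95% intervals of −0.21 to 0.58, −0.24 to 0.55 and −0.28 to 0.51. Without replicate 1, MCM3 was higher at 60 min in HOG1-GFP by 0.46 (adjusted p = 0.0054).

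**Figure D2:**
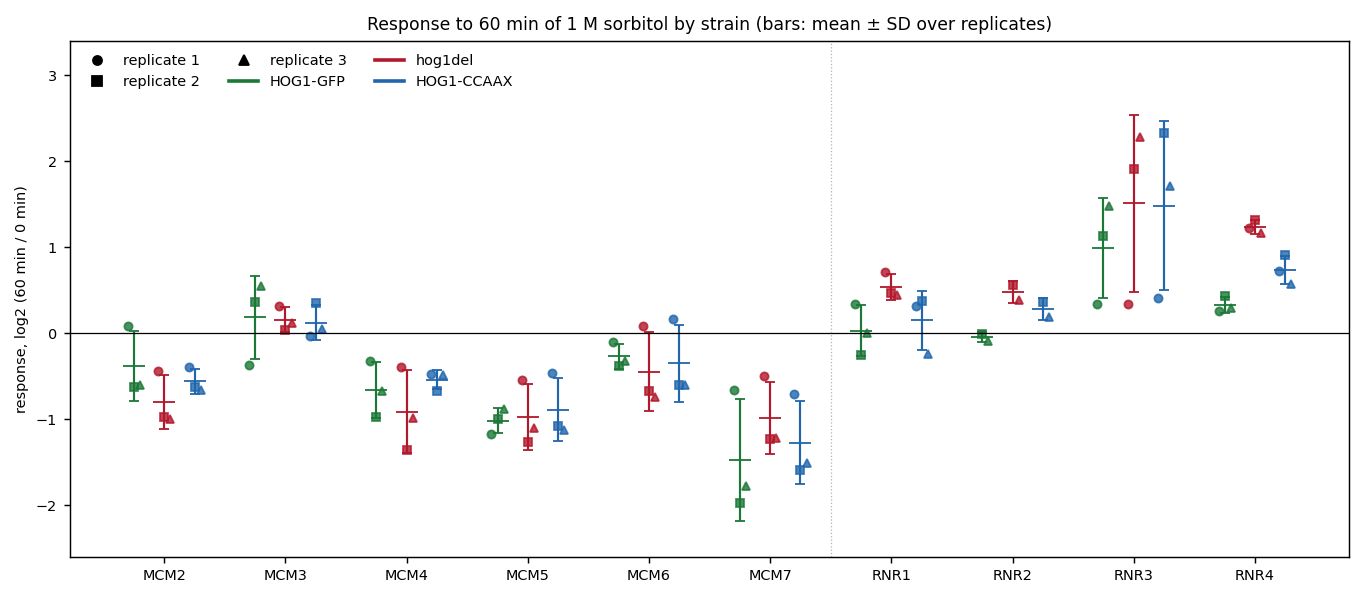
Responses (log2 of 60 min over 0 min, vertical axis) of the 10 genes in each replicate (marker) and strain (colour), with the mean as a dash and the SD as a bar (n = 3, or 2 for RNR2). Means lie between −1.47 and −0.27 for the 5 MCM genes other than MCM3, RNR3 is highest with its replicate 1 near 0.34 to 0.41, and RNR4 has SDs of 0.08 to 0.17, with hog1del above HOG1-CCAAX above HOG1-GFP in every replicate.

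Among the ribonucleotide reductase genes, RNR4 rose in all 3 strains, most in hog1del, where it was 2.35-fold higher. RNR3 rose in hog1del and HOG1-CCAAX, and RNR1 rose in hog1del. None fell. Of the 3 RNR genes in the main fit, 1 rose in HOG1-GFP, 3 in hog1del and 2 in HOG1-CCAAX, against 24.0%, 25.6% and 28.1% of all genes.

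RNR4 (YGR180C) encodes the small subunit that has no iron site of its own and that RNR2 needs to fold. In HOG1-GFP its levels went from −0.21, −0.68 and −0.41 to 0.05, −0.25 and −0.12, a modest shift with overlapping times. In hog1del they went from 0.02, −0.22 and −0.18 to 1.24, 1.10 and 0.99, far apart. In HOG1-CCAAX they went from −0.17, −0.36 and −0.07 to 0.55, 0.55 and 0.51, also apart, although the value of −0.07 rested on 1 array. The responses were 0.33 ± 0.09 in HOG1-GFP (limma adjusted p = 0.039), 1.23 ± 0.08 in hog1del (adjusted p = 3.8e-05) and 0.73 ± 0.17 in HOG1-CCAAX (adjusted p = 0.00057), or 1.25-fold, 2.35-fold and 1.66-fold. The HOG1-GFP response did not pass after quantile normalization (0.32, adjusted p = 0.082). Ordered by mean level, RNR4 was highest in hog1del at 60 min (1.11 ± 0.13), then in HOG1-CCAAX at 60 min (0.54 ± 0.03), and the ranges of these groups did not overlap each other or any other group. The next, HOG1-GFP at 60 min (−0.11 ± 0.15), did not differ beyond its spread from hog1del (−0.12 ± 0.13) and HOG1-CCAAX (−0.20 ± 0.15) at 0 min, and HOG1-GFP at 0 min was lowest (−0.43 ± 0.24), its range overlapping those of these 3 groups. Levels at 60 min were not tested between strains.

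The response of RNR4 was the only one among the members that differed between strains by test. It was larger in hog1del than in HOG1-GFP by 0.91 ± 0.05 (SD over the 3 replicate differences of 0.96, 0.89 and 0.87; limma interaction contrast, adjusted p = 0.020; 95% interval 0.55 to 1.27). This difference was called for 2.57% of all genes. The test did not pair the replicates, so the SD of 0.05 is not the spread that its p-value rests on. With the replicate as a block the limma adjusted p was 0.0021, in a fit that called 14.8% of all genes. On single arrays of equal technical number, the 7 responses of RNR4 ranged from 0.84 to 1.52 in hog1del and from 0.10 to 0.54 in HOG1-GFP, without overlap. These 7 array pairs come from 3 biological replicates and are not independent. Without the block, leaving out replicate 2 or replicate 3 kept the size (0.92 and 0.93) but not the call (limma adjusted p = 0.47 and 0.57).

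RNR3 (YIL066C) encodes the alternative large subunit, scarce in unstressed cells and a standard reporter of the DNA damage response. Its levels in HOG1-GFP went from −0.39, −1.45 and −1.79 to −0.04, −0.32 and −0.31. In hog1del they went from −0.24, −1.26 and −1.33 to 0.10, 0.65 and 0.95, and in HOG1-CCAAX from −0.41, −1.83 and −1.52 to −0.00, 0.50 and 0.19. The times did not overlap in any strain, but replicate 1 moved by only 0.34, 0.34 and 0.41 against 1.13 to 2.33 in the others. The responses were 0.98 ± 0.58 (limma adjusted p = 0.082), 1.51 ± 1.03 (adjusted p = 0.015) and 1.48 ± 0.98 (adjusted p = 0.015). That of HOG1-GFP passed with the replicate as a block (adjusted p = 0.00030) and without replicate 1 (1.30, adjusted p = 9.8e-05). Both leave out the distance of replicate 1 from the others, which makes up much of the SD of 0.58. Without replicate 1 the rise was 4.27-fold in hog1del and 4.05-fold in HOG1-CCAAX, in place of 2.85-fold and 2.79-fold.

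RNR1 (YER070W) encodes the main large subunit. Its levels in HOG1-GFP were −0.53, 0.33 and 0.10 before and −0.19, 0.08 and 0.09 after. In hog1del they went from −0.53, 0.19 and 0.24 to 0.19, 0.66 and 0.68, higher in every replicate, and in HOG1-CCAAX from −0.51, 0.02 and 0.35 to −0.20, 0.40 and 0.11. The times overlapped in each strain, replicate 1 lying lowest. The hog1del response of 0.54 ± 0.15 passed (limma adjusted p = 0.019), and those of 0.03 ± 0.30 in HOG1-GFP (adjusted p = 0.90) and 0.15 ± 0.34 in HOG1-CCAAX (adjusted p = 0.46) did not. RNR1 and RNR3 are paralogs, and binding of either transcript to the other's probe was not tested.

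RNR2 (YJL026W) encodes the small subunit that holds the iron and the tyrosyl radical. Its levels in replicates 2 and 3 were −0.58 and −0.51 before and −0.58 and −0.60 after in HOG1-GFP. They went from −0.40 and −0.35 to 0.17 and 0.04 in hog1del, and from −0.55 and −0.51 to −0.18 and −0.32 in HOG1-CCAAX. In the fit of genes with at least 2 replicates per strain, the response of 0.47 ± 0.13 in hog1del passed (n = 2, limma adjusted p = 0.039), and those of −0.05 ± 0.06 (adjusted p = 0.82) and 0.28 ± 0.13 (adjusted p = 0.17) in HOG1-GFP and HOG1-CCAAX did not. That fit called 53.1% of genes in hog1del, 46.5% in HOG1-GFP and 53.8% in HOG1-CCAAX, and 2.58% for the difference between hog1del and HOG1-GFP, where RNR2 did not pass (0.52, adjusted p = 0.31). In 3 of its 12 levels the authors' average equalled 1 array although another array held a value. With all arrays averaged, its hog1del response was 0.35 and did not pass (adjusted p = 0.10), nor did it after quantile normalization (0.42, adjusted p = 0.062).

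For the other members, the test of the difference between hog1del and HOG1-GFP did not pass. The differences of RNR1, RNR2 and RNR3 were 0.51, 0.52 and 0.53, with 95% intervals of 0.00058 to 1.02, −0.0019 to 1.05 and −0.82 to 1.87 (limma adjusted p = 0.32, 0.31 and 0.74). MCM7 differed by 0.49, that is a smaller decline in hog1del, with an interval of −0.39 to 1.36 (adjusted p = 0.60). MCM2 differed by −0.42, with an interval of −0.97 to 0.13 (adjusted p = 0.45), and MCM3, MCM4, MCM5 and MCM6 by −0.03, −0.25, 0.04 and −0.18. Without replicate 1, RNR3 (0.79, adjusted p = 0.042) and MCM7 (0.65, adjusted p = 0.014) passed in addition to RNR4, in a fit that called 21.3% of all genes.

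Between HOG1-CCAAX and HOG1-GFP, 0 of the 9 members in the main fit differed in response by limma after adjustment (1 at an unadjusted p under 0.05), where 0.331% of all genes did. RNR4 came closest, with 0.41 ± 0.11 (adjusted p = 0.54; 95% interval 0.05 to 0.77). Between HOG1-CCAAX and hog1del, again 0 of 9 differed (1 unadjusted) against 0.129% of all genes, and RNR4 was lower in HOG1-CCAAX by 0.50 on the log2 scale (−0.50 ± 0.09, adjusted p = 0.45; interval −0.86 to −0.14). These SDs are over differences within replicates, which the test did not pair, and the intervals are not adjusted for the number of genes. The intervals do not show that the strains respond alike. The 3 strain comparisons share samples, since each strain enters 2 of them.

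At 0 min, before the shock, 0 of 9 members passed in limma's test for hog1del against HOG1-GFP (2 at an unadjusted p under 0.05), where 0.937% of all genes were called. For HOG1-CCAAX against HOG1-GFP and against hog1del 0 of 9 passed (1 unadjusted in each), where 0.276% and 0.276% of all genes were called. RNR4 was highest relative to HOG1-GFP, by 0.31 in hog1del (limma adjusted p = 0.24) and 0.24 in HOG1-CCAAX (adjusted p = 0.54), and no member of the 9 differed from HOG1-GFP by more than 0.31 in either direction. Between HOG1-CCAAX and hog1del, RNR3 differed most among the 9, by −0.315 (limma adjusted p = 0.36).

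**Figure D3:**
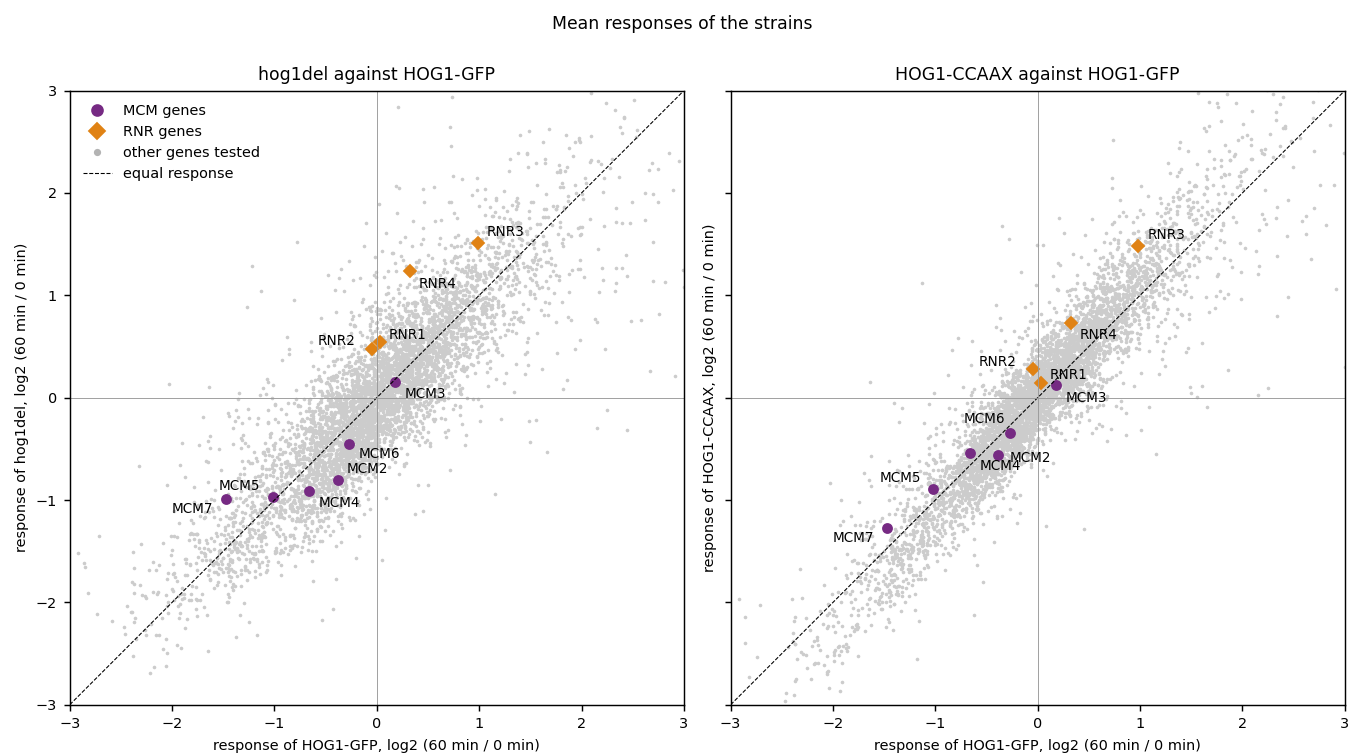
Mean responses (log2 of 60 min over 0 min) of hog1del (left) and HOG1-CCAAX (right) against HOG1-GFP for the 5443 genes tested (grey) and the 10 members (purple circles MCM, orange diamonds RNR); 61 and 67 genes lie beyond the axis limits of 3. The 4 RNR genes lie above the line of equal response in hog1del, RNR4 by 0.91, and the MCM genes lie on either side of it.

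Counts of calls depended on replicate 1. Without it, 8 of the 9 members in the main fit passed in HOG1-GFP, 8 in hog1del and 7 in HOG1-CCAAX, in place of 4, 7 and 6, but such fits also called 69.3%, 73.2% and 74.1% of all genes. With the replicate as a block, 6, 8 and 7 passed, against 66.0%, 69.8% and 69.5% of all genes. That fit leaves the spread between replicates that the strains share out of the error of a response. Without replicate 2, and likewise without replicate 3, 1 of the 9 members passed in each strain, MCM5 in HOG1-GFP and RNR4 in hog1del and HOG1-CCAAX. The shares of all genes called also dropped, to 21.8%, 24.5% and 26.0% without replicate 2 (in the same order of strains) and to 19.8%, 21.9% and 26.5% without replicate 3. The levels at 0 and 60 min did not overlap for 3 of 9 members in HOG1-GFP, 5 in hog1del and 5 in HOG1-CCAAX, against 47.8%, 50.3% and 53.4% of all genes, so that by this count the members did not stand out.

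Over the 18 level columns, which share the reference pool and replicate effects, the MCM genes other than MCM3 ran together, with Pearson correlations of 0.61 to 0.94 between them, highest for MCM2 with MCM4. MCM3 correlated with the other five at −0.73 to −0.45. RNR2 and RNR4, whose products pair as the small subunit, correlated at 0.92 over 12 columns, and RNR3 with RNR4 at 0.80. RNR1 correlated with RNR3 at 0.14 and with RNR4 at 0.40 over 18 columns, and with RNR2 at 0.84 over 12. The 12 columns leave out replicate 1, so values over 12 and 18 columns are not alike. The widest opposition was between MCM4 and RNR3, at −0.90.

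Other genes may be ranked by likeness to these profiles, as a description over the same columns among 5177 genes. The mean of MCM2 to MCM7 was most like MPP10 (0.981), FKH2 (0.979) and FRE6 (0.974). RNR1 was most like NDL1 (0.902), FAL1 (0.897) and NDC80 (0.896). The mean of RNR2 and RNR4, over 12 columns, was most like PAU19 (0.987), NUR1 (0.984) and WSC2 (0.981), and RNR3 most like VBA2 (0.973), DTR1 (0.973) and RIB1 (0.972).

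The rest of the replication pathway was mixed. Of 100 genes in 8 lists, 92 were tested, of which 9 rose and 26 fell in HOG1-GFP, 18 rose and 23 fell in hog1del, and 16 rose and 22 fell in HOG1-CCAAX. Over all genes tested, 24.0% rose and 22.7% fell in HOG1-GFP, 25.6% and 27.4% in hog1del, and 28.1% and 26.1% in HOG1-CCAAX. With the replicate as a block, 54, 58 and 56 of the 92 passed in these strains in either direction, against 66.0%, 69.8% and 69.5% of all genes. In the list of origin recognition and helicase loading, 8 genes were tested; 0 rose and 1 fell in HOG1-GFP, 2 rose and 2 fell in hog1del, and 1 rose and 1 fell in HOG1-CCAAX. CDC6, which loads the MCM ring together with ORC, rose by 1.17 in hog1del (limma adjusted p = 0.00016) and had responses of −0.37 in HOG1-GFP (adjusted p = 0.058) and 0.03 in HOG1-CCAAX (adjusted p = 0.87). Its response differed between hog1del and HOG1-GFP by 1.54 (limma adjusted p = 0.0051). This was the only such call among the 92 in the fit without the block, which called 2.57% of all genes. With the block 12 of the 92 passed, against 14.8% of all genes, CDC6 among them (adjusted p = 0.00053). CLB6 and YOX1, described below, passed too. Other named genes that passed were POL30 (0.80, adjusted p = 0.016), RFC4 (−0.57, 0.023), CDC8 (−0.59, 0.044), IXR1 (0.71, 0.011) and RAD9 (−0.60, 0.019). For HOG1-CCAAX minus hog1del, CDC6 (−1.14) passed only with the block (limma adjusted p = 0.010, and 0.091 without). In that comparison 1 of the 92 and 139 of all genes passed with the block. TAH11 (Cdt1), the partner that brings MCM to the origin, rose by 0.79 in hog1del (adjusted p = 0.0017) and 0.60 in HOG1-CCAAX (adjusted p = 0.0070), with 0.37 in HOG1-GFP (adjusted p = 0.060). ORC1 fell by 0.84 in hog1del (adjusted p = 0.039), with −0.40 in HOG1-GFP (adjusted p = 0.29) and −0.71 in HOG1-CCAAX (adjusted p = 0.071). With the block, the HOG1-GFP responses of CDC6 (adjusted p = 0.029), TAH11 (0.010) and ORC1 (0.012) and the HOG1-CCAAX response of ORC1 (0.00033) passed.

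Among 11 tested genes of helicase activation and origin firing, 2 rose and 3 fell in HOG1-GFP, 2 and 3 in hog1del, and 2 and 2 in HOG1-CCAAX. In these strains 24.0% and 22.7%, 25.6% and 27.4%, and 28.1% and 26.1% of all genes rose and fell. CDC7, the kinase that phosphorylates MCM, rose in all strains (0.86, 0.61 and 0.98, in the order HOG1-GFP, hog1del, HOG1-CCAAX), and PSF3 of the GINS complex fell in all (−0.48, −0.99 and −0.61). SLD5, also of GINS, fell in HOG1-GFP (−0.56) and hog1del (−0.62), with −0.20 in HOG1-CCAAX. Of 28 genes of the polymerases and the fork, 1 rose and 9 fell in HOG1-GFP, 5 and 8 in hog1del, and 3 and 11 in HOG1-CCAAX. POL1, the catalytic subunit of the primase-bound polymerase, fell by 0.98, 1.00 and 0.89 on the log2 scale in the same order, and RFC4 of the clamp loader by 0.48, 1.05 and 0.87. POL30, the sliding clamp, rose in hog1del (1.11), with 0.31 and 0.53 in HOG1-GFP and HOG1-CCAAX, the latter passing with the block (adjusted p = 0.0033).

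Of 6 other enzymes of nucleotide supply, 1 rose and 3 fell in HOG1-GFP, 1 and 2 in hog1del, and 1 and 3 in HOG1-CCAAX. The shares of all genes that rose and fell were 24.0% and 22.7%, 25.6% and 27.4%, and 28.1% and 26.1%. GUK1, guanylate kinase, fell in all strains (−1.08, −1.22 and −1.34), YNK1, nucleoside diphosphate kinase, rose in all (0.80, 0.73 and 0.74), and CDC8, thymidylate kinase, fell in hog1del (−0.97), with −0.38 in HOG1-GFP and −0.53 in HOG1-CCAAX, which passed with the block (adjusted p = 0.016 and 0.0024). Of 9 regulators of ribonucleotide reductase, 1 rose and 3 fell in HOG1-GFP, 2 and 1 in hog1del, and 3 and 1 in HOG1-CCAAX. ROX1, a repressor of hypoxic genes reported to act on RNR genes, rose in all strains (1.37, 1.87 and 1.96), and CYC8, a general corepressor, fell in all (−0.57, −0.84 and −0.78). IXR1, a regulator of RNR1, fell in HOG1-GFP (−0.62), with 0.09 and −0.22 in hog1del and HOG1-CCAAX.

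Of 9 checkpoint genes, 1 rose and 0 fell in HOG1-GFP, 2 and 2 in hog1del, and 1 and 0 in HOG1-CCAAX. Among all genes, 24.0% rose and 22.7% fell in HOG1-GFP, 25.6% and 27.4% in hog1del, and 28.1% and 26.1% in HOG1-CCAAX. RAD24, a loader of the checkpoint clamp, rose in all strains (0.79, 0.71 and 0.86), and CHK1 did not pass in any (0.34, 0.47 and 0.59) except with the block (adjusted p = 0.021, 0.0032 and 0.00073). RAD9, a checkpoint adaptor, fell in hog1del (−0.91), with −0.31 in HOG1-GFP and −0.46 in HOG1-CCAAX, which passed with the block (adjusted p = 0.019 and 0.0019). Of 10 genes reported as induced by DNA damage, 2 rose and 1 fell in HOG1-GFP, 2 and 2 in hog1del, and 3 and 0 in HOG1-CCAAX. DIN7, a nuclease gene, rose in all strains (0.73, 1.10 and 0.66), and DDI2 fell in HOG1-GFP (−0.97), with −0.58 in hog1del and −0.71 in HOG1-CCAAX, which passed with the block (adjusted p = 0.0018 and 0.00044). The DDI2 signal is uncertain because DDI3 is a near-identical copy.

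Of 11 genes of G1/S transcription, 1 rose and 6 fell in HOG1-GFP, 2 and 3 in hog1del, and 2 and 4 in HOG1-CCAAX. For all genes the shares higher and lower were 24.0% and 22.7%, 25.6% and 27.4%, and 28.1% and 26.1%. The cyclin gene CLB6 fell in HOG1-GFP (−1.45) and HOG1-CCAAX (−0.85), with −0.15 in hog1del. PCL1, a cyclin of Pho85, rose in all strains (1.98, 2.54 and 2.08), and YOX1, a repressor of the M/G1 genes that include MCM genes and CDC6, rose in hog1del (1.48) and HOG1-CCAAX (1.06), with 0.34 in HOG1-GFP. The strain differences of CLB6 (1.30) and YOX1 (1.14) between hog1del and HOG1-GFP did not pass (limma adjusted p = 0.054 for each) except with the block (adjusted p = 0.0012 and 0.0062). The share of cells in each cell-cycle phase was not measured, and its part in any of these responses was not tested.

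**Figure D4:**
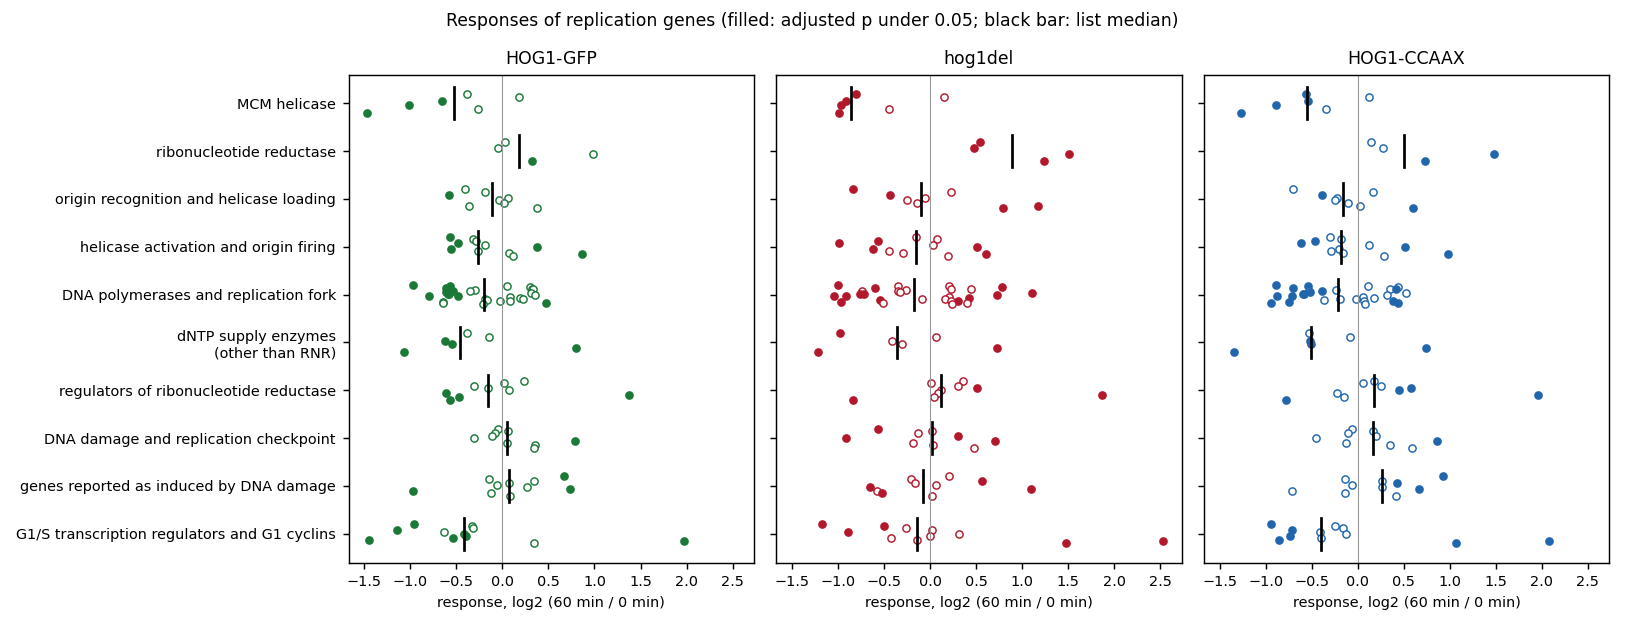
Mean responses (log2 of 60 min over 0 min, horizontal axis) of the MCM and RNR genes and of the 92 tested genes of 8 replication lists in the 3 strains; each circle is a gene, filled where its adjusted p is under 0.05, and black bars are medians. The MCM medians of −0.52, −0.86 and −0.55 lie left of 0, as do those of 5 of the 8 lists in all strains, and the RNR medians lie right of it; single genes of the MCM group and of every list lie on both sides.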

How the data were processed

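The authors deposited log2 ratios of reference (Cy5) over sample (Cy3), 1 table per biological replicate, averaged over technical arrays. How they read the images, corrected the background, filtered spots and scaled the channels is not given in the sources used here. The sign was then inverted here, which makes a positive level an excess over the reference. The lowest correlation between level columns was −0.46, between a column at 0 min and one at 60 min; the direction was kept because the labels state the dyes. 1 column name per table has a misplaced space and was read as 60 min. Of 8635 features per table, 6278 are open reading frames, 5804 of which carry a RefSeq locus tag, used for names only. Precision is limited by the number of arrays.

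Responses and their strain contrasts were tested with limma 3.58.1 in R 4.3.3 (two-sided, strain as the only term and no pairing), and levels at 0 min with the replicate as a block. Benjamini-Hochberg adjustment covered all 5443 genes (5999 for RNR2), with a threshold of 0.05. Values are mean ± SD over replicates (n = 3; 2 for RNR2). The analysis was tested on simulated data with independent noise, which lacked the shared replicate effects seen here. Deviations from the group mean correlated at 0.44 to 0.82 (responses) and 0.74 to 0.91 (levels at 0 min) between samples of equal replicate number. The highest correlations of unequal number were 0.61 and 0.81, both between replicates 2 and 3. Since replicate 1 stood apart, these values do not show that replicates 2 and 3 pair by number. Equal numbers were used as blocks in an alternative fit. Its values are given where they change a call of a member or a named list gene. For a response within a strain, the block removes the spread between replicates that the strains share, so its p-value does not measure that spread. Alternatives were the replicate block, median centring, quantile normalization, a filter on values, single arrays averaged, and each replicate left out. All 10 members are named, with up to 3 genes of each list by the largest mean response in any strain, and the 3 genes most like each of 4 profiles. A gene of the damage-induced list that this rule names is not reported here. The members and lists were chosen with earlier results of these data known. Sequences were not used here, so no promoter motif was searched.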

Additional observations from a re-analysis of the deposited data

Results flagged for a closer look

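The response of RNR4 differed between strains by a test of the difference itself: it was larger in hog1del than in HOG1-GFP by 0.91 on the log2 scale (limma contrast, adjusted p = 0.020), with the same sign in 3 of 3 replicates. HOG1-CCAAX lay between these strains in all 3 replicates, but its difference from either did not pass. Groups of 3 were not searched for outlying samples.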

How the results depend on the processing

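Under the alternatives that keep all replicates, member results changed side or direction in few cases. The replicate block, which pairs samples of equal number, brought the responses of MCM2 and RNR3 in HOG1-GFP and of MCM6 in hog1del and HOG1-CCAAX past the threshold and changed no other member call. It raised the number of genes whose response differed to 804 for hog1del minus HOG1-GFP, 184 for HOG1-CCAAX minus HOG1-GFP and 139 for HOG1-CCAAX minus hog1del, from 140, 18 and 7. Without the block, levels at 0 min differed for 4, 0 and 2 genes in these 3 comparisons, from 51, 15 and 15. Quantile normalization gave 11 genes for the difference of response between HOG1-CCAAX and hog1del and 8 for the level at 0 min between HOG1-CCAAX and HOG1-GFP, and took the responses of RNR4 in HOG1-GFP and RNR2 in hog1del below the threshold. The cause was not tested.

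Differences that did not pass changed sign in 5 cases: MCM3 (hog1del minus HOG1-GFP response, 0.0102) and RNR1 (level at 0 min, hog1del minus HOG1-GFP, −0.0262) with quantile normalization, MCM4 (level at 0 min, HOG1-CCAAX minus hog1del, −0.0028) and RNR2 (level at 0 min, HOG1-CCAAX minus HOG1-GFP, −0.0058) with median centring, and RNR3 (HOG1-CCAAX minus hog1del response, 0.0072) with single arrays averaged.

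Leaving out each replicate in turn also moved the counts, the highest coming without replicate 1 for all comparisons but the level at 0 min of hog1del against HOG1-GFP. Called genes ranged from 1076 to 3770 in HOG1-GFP, 1194 to 3983 in hog1del and 1413 to 4031 in HOG1-CCAAX. They ranged from 0 to 1158, 0 to 487 and 0 to 500 for the differences of response (hog1del minus HOG1-GFP, HOG1-CCAAX minus HOG1-GFP, HOG1-CCAAX minus hog1del), and from 11 to 64, 6 to 39 and 7 to 40 for levels at 0 min. Called members ranged from 1 to 8 in HOG1-GFP, 1 to 8 in hog1del, 1 to 7 in HOG1-CCAAX and 0 to 3 for hog1del minus HOG1-GFP. Without replicate 2, and likewise without replicate 3, 15 member results lost the call and none gained it; without replicate 1, 8 gained it. Values that did not pass with all replicates crossed 0; of these, MCM3 in HOG1-GFP passed without replicate 1. Responses in HOG1-GFP ranged from −0.0014 to 0.46 (MCM3) and −0.13 to 0.17 (RNR1). Differences of response, hog1del minus HOG1-GFP, ranged from −0.38 to 0.18 (MCM3) and −0.25 to 0.20 (MCM5). Those of HOG1-CCAAX minus HOG1-GFP ranged from −0.26 to 0.16 (MCM3), −0.16 to 0.31 (MCM5), −0.256 to 0.0201 (MCM6) and −0.13 to 0.30 (RNR1). Those of HOG1-CCAAX minus hog1del ranged from −0.21 to 0.12 (MCM3) and −0.25 to 0.25 (RNR3). Levels at 0 min crossed for hog1del minus HOG1-GFP in MCM3 (−0.14 to 0.12) and RNR1 (−0.0652 to 0.0753), and for HOG1-CCAAX minus HOG1-GFP in MCM3 (−0.125 to 0.104), MCM5 (−0.125 to 0.0263), MCM6 (−0.00078 to 0.26), RNR1 (−0.14 to 0.14) and RNR3 (−0.20 to 0.12). For HOG1-CCAAX minus hog1del they crossed in MCM2 (−0.0656 to 0.0167), MCM3 (−0.0150 to 0.146), MCM4 (−0.0569 to 0.0631) and RNR1 (−0.0778 to 0.0632).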
